A study of Mus musculus with 20 samples.

Results

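The mitosis and spindle genes described here are 60 genes picked by name from the 56748 rows of each of the study's 2 tables of gene counts. The choice was made with earlier results of these data known. They comprise the cyclins, kinases and phosphatases that drive cells from G2 into mitosis, the spindle checkpoint and anaphase machinery, kinetochore proteins, spindle motors, cytokinesis proteins, chromosome structure proteins and a pair of transcription factors, and they were sorted into 9 roles. Poly(A) RNA of mouse macrophages was sequenced in 20 libraries, of which 12 are labelled bone marrow-derived macrophages (BMDM) and 8 come from RAW264.7, a macrophage-like mouse cell line. In the BMDM-labelled experiment, wildtype cells and cells lacking inducible nitric oxide synthase (iNOS, gene Nos2), the enzyme that makes nitric oxide in activated macrophages, were either left unstimulated or given 50 ng/mL lipopolysaccharide (LPS) and 30 ng/mL interferon γ (IFNγ) for 48 h, with 3 libraries in each of the 4 groups. In the RAW264.7 experiment, wildtype cells and cells lacking Akr1a1, an aldo-keto reductase, were left unstimulated or stimulated for 48 h with LPS at 50 ng/mL and IFNγ at 10 ng/mL, with 2 libraries in each of the 4 groups.

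Several properties limit these groups as models. Per the labels, the marrow came from wildtype or iNOS KO mice on the C57BL/6J background, of either sex and 6 to 12 weeks old, and BMDM were grown with 20 ng/mL M-CSF. The study's methods state that marrow was pooled by genotype and that the iNOS allele came from the B6.129P2-Nos2tm1Lau/J strain. They also state that each group of the Akr1a1 experiment held 2 independent clonal replicates. The study's text describes the iNOS RNA sequencing as done in RAW264.7 cells whereas every label of those libraries says BMDM, and this conflict was not settled, so the libraries are called BMDM-labelled here. The conflict bears on mitosis genes because the study's text describes its BMDM as not proliferating, whatever the genotype or stimulation. It describes the proliferation of its RAW264.7 cells as inhibited by the nitric oxide made on stimulation. Mki67, a proliferation marker, lay at 555, 569 and 489 CPM in the unstimulated wildtype libraries in question. For replicate B of unstimulated RAW264.7 cells, wildtype and Akr1a1 KO, the title says stimulated while the treatment field and the library name say unstimulated, and the latter were followed. The study's methods call the replicates of the iNOS experiment biological, but nothing states that the BMDM-labelled ones came from separate animals. The p-values thus measure only the spread between these samples, which may be technical. In the RAW264.7 experiment they rest on 2 libraries in each group.

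Entry into mitosis is driven by cyclin B bound to Cdk1, which Cdc25 phosphatases switch on by removing inhibitory phosphates, while Aurora and Polo-like kinases build the spindle. Kinetochores join chromosomes to spindle microtubules, and the spindle checkpoint holds the anaphase-promoting complex (APC/C) inactive until every chromosome is attached. The transcripts of these genes are known to accumulate in G2 and M phase and to be scarce in cells that have left the cell cycle, and much of this periodicity is ascribed to promoters that carry CCAAT boxes, bound by NF-Y, and a cell cycle genes homology region (CHR), bound by MuvB-containing complexes with B-MYB or FOXM1 in cycling cells and by DREAM in resting cells. In bulk libraries, fewer dividing cells and less RNA per dividing cell cannot be told apart.

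The promoters of 6 members are shown first because they show how the CHR and CCAAT letters are arranged at genes that spanned the range of responses described below. They are Cenpf (chr1:189688037-189688336, minus strand), Cdk1 (chr10:69352863-69353162, minus strand), Top2a (chr11:99024140-99024439, minus strand), Ube2c (chr2:164769679-164769978, plus strand), Bub3 (chr7:131560120-131560419, plus strand) and Mybl2 (chr2:163054385-163054684, plus strand), on GRCm38.p6 from RefSeq, each written 5′ to 3′ on the gene's strand from 250 bases before the transcription start to 50 bases after it. Capitals mark the CHR letters TTTGAA or TTCGAA and the letters CCAAT, each on either strand.
Cenpf: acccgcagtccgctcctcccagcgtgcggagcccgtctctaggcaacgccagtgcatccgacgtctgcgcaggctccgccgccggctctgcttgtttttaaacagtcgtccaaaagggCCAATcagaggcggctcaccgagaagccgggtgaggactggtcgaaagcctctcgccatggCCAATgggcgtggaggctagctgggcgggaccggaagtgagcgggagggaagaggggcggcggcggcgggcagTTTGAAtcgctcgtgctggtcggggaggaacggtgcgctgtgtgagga
Cdk1: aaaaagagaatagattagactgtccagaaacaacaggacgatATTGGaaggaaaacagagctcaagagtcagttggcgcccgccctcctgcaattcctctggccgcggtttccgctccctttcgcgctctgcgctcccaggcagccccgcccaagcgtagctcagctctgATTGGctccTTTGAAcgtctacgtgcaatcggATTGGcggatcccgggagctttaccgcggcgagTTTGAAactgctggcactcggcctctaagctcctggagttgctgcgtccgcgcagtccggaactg
Top2a: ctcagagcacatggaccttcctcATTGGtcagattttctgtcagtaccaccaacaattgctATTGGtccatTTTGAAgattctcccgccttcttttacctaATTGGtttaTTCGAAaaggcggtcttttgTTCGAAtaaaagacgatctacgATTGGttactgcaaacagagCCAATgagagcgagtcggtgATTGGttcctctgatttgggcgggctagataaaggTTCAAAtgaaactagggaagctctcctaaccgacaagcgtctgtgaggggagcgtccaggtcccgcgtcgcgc
Ube2c: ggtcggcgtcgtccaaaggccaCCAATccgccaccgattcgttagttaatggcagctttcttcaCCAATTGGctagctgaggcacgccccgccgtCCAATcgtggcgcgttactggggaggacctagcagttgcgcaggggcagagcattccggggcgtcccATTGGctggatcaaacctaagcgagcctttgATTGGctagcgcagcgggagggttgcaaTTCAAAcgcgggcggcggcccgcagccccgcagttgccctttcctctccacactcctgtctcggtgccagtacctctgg
Bub3: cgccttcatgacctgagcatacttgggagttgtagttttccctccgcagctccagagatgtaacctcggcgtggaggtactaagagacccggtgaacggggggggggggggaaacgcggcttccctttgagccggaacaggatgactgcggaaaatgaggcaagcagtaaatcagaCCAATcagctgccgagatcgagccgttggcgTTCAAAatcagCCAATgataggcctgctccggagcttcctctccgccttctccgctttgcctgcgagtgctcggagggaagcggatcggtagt
Mybl2: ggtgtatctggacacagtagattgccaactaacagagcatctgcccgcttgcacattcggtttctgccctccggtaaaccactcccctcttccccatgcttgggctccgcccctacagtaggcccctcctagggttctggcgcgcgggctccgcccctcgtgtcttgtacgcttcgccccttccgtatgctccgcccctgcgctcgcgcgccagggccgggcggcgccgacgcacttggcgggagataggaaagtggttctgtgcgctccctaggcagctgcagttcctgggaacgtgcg

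The Cenpf window held a CHR match 3 bases after the start and CCAAT at positions -132 and -71, and the Cdk1 window held CHR matches at -71 and -15 with CCAAT at -208, -80 and -48. Ube2c carried 1 CHR match, at -29, and 6 CCAAT matches, Top2a carried 4 and 6, and Bub3 carried 1 and 2, while neither motif was found in the Mybl2 window. RefSeq windows were matched for 49 members. A CHR match was found in 38 of the 49 members (77.6%), against 21.7% of 27018 genes with such a window, and CCAAT in 73.5% of the members against 41.1% of genes. Both motifs stood together in 65.3% of the members against 8.61% of genes. The CHR matches clustered near the start, with a median position of -17.5 and 38 of 56 matches within 50 bases of it, whereas the 87 CCAAT matches had a median position of -68. The 11 matched members without a CHR match were Ccnb1, Nek2, Melk, Mad2l1, Pttg1, Cenpe, Cenpk, Nuf2, Birc5, Nusap1 and Mybl2. A letter match is a description of the window and not a mapped binding site.

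All 60 members were tested in both experiments, at 15072109 to 18878107 counts per library in the BMDM-labelled experiment (18691 genes tested) and 11876719 to 44583327 counts in RAW264.7 cells (19569 genes tested). Levels are given in CPM, the usual unit of counts relative to the library total, here scaled by TMM, and each table was scaled on its own, so levels are not compared between experiments by a test. Nos2 lay at 1.25 to 1.53 CPM in unstimulated wildtype libraries and at 10370, 11530 and 11310 CPM after stimulation, while it was at 0 in the unstimulated iNOS KO libraries and at 871, 891 and 912 CPM in the stimulated ones. Akr1a1 lay at 427 and 488 CPM in unstimulated wildtype RAW264.7 libraries, replicates A and B in that order throughout, and at 206 and 21.9 CPM in unstimulated Akr1a1 KO libraries. After stimulation it lay at 576 and 675 CPM in wildtype and 370 and 212 CPM in the KO, so transcript remained in every Akr1a1 KO library. Stimulated iNOS KO replicate B and wildtype RAW264.7 replicate A stood apart from their group mates for some members. Counts or medians over the members without these libraries are given below. Each of the 10 macrophage markers had counts in some library of each experiment, though not in every library. Their sums were 5930 to 13600 CPM in the BMDM-labelled libraries and 3440 to 12500 CPM in RAW264.7 cells. Mertk lay at only 0 to 0.134 CPM in RAW264.7 cells, and 1 marker was at 0 in unstimulated iNOS KO replicates A and C. In the BMDM-labelled experiment, the difference of Mertk's stimulation response between genotypes was -0.44 ± 2.52 (SE) on the log2 scale. It was thus poorly measured there too, and low Mertk is not taken here to set RAW264.7 cells apart. Of the other cell types listed, neutrophil markers summed to at most 1.17 CPM in unstimulated BMDM-labelled libraries. They summed to 35.5 to 61.8 CPM in stimulated wildtype and 38.4 to 44.1 CPM in stimulated iNOS KO, with Ly6g, Ltf and Retnlg at 0 throughout. In RAW264.7 cells they summed to at most 0.581 CPM without stimulation, 121 to 144 CPM in stimulated wildtype and 247 to 419 CPM in stimulated Akr1a1 KO. Nearly all of the stimulated RAW264.7 sums was S100a8, at 121 and 144 CPM in wildtype and 246 and 419 CPM in the KO. No other neutrophil marker exceeded 0.268 CPM in RAW264.7 cells. Progenitor markers summed to at most 5.25 CPM (Ctsg at 0), fibroblast markers to at most 16.6 CPM (Col3a1 at 0) and lymphocyte markers to at most 0.693 CPM, and their part in the results was not tested.

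The first comparison asks how the mitosis genes of stimulated macrophages differed with and without iNOS. After stimulation, every one of the 60 members lay higher in iNOS KO than in wildtype cells, and all were called, against a background of 10.7% of all genes tested called higher at an adjusted p under 0.05 and a log2 fold change above 1. Because the members were chosen with earlier results known, this share describes them and is not independent evidence. The libraries of the groups did not overlap for any member, as for 53.2% of all genes tested. Adjusted p-values here and below come from edgeR's quasi-likelihood F test, adjusted by Benjamini-Hochberg over all genes tested. The median log2 fold change of the members was 4.29, against -0.04 over all genes tested, and adjusted p-values ran from 1.9e-16 to 1.6e-06. Summed over the members, the level was 328 to 346 CPM in the stimulated wildtype libraries and 3733, 3161 and 3584 CPM in stimulated iNOS KO replicates A, B and C, a ratio of the means of 10.3.

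**Figure D1:**
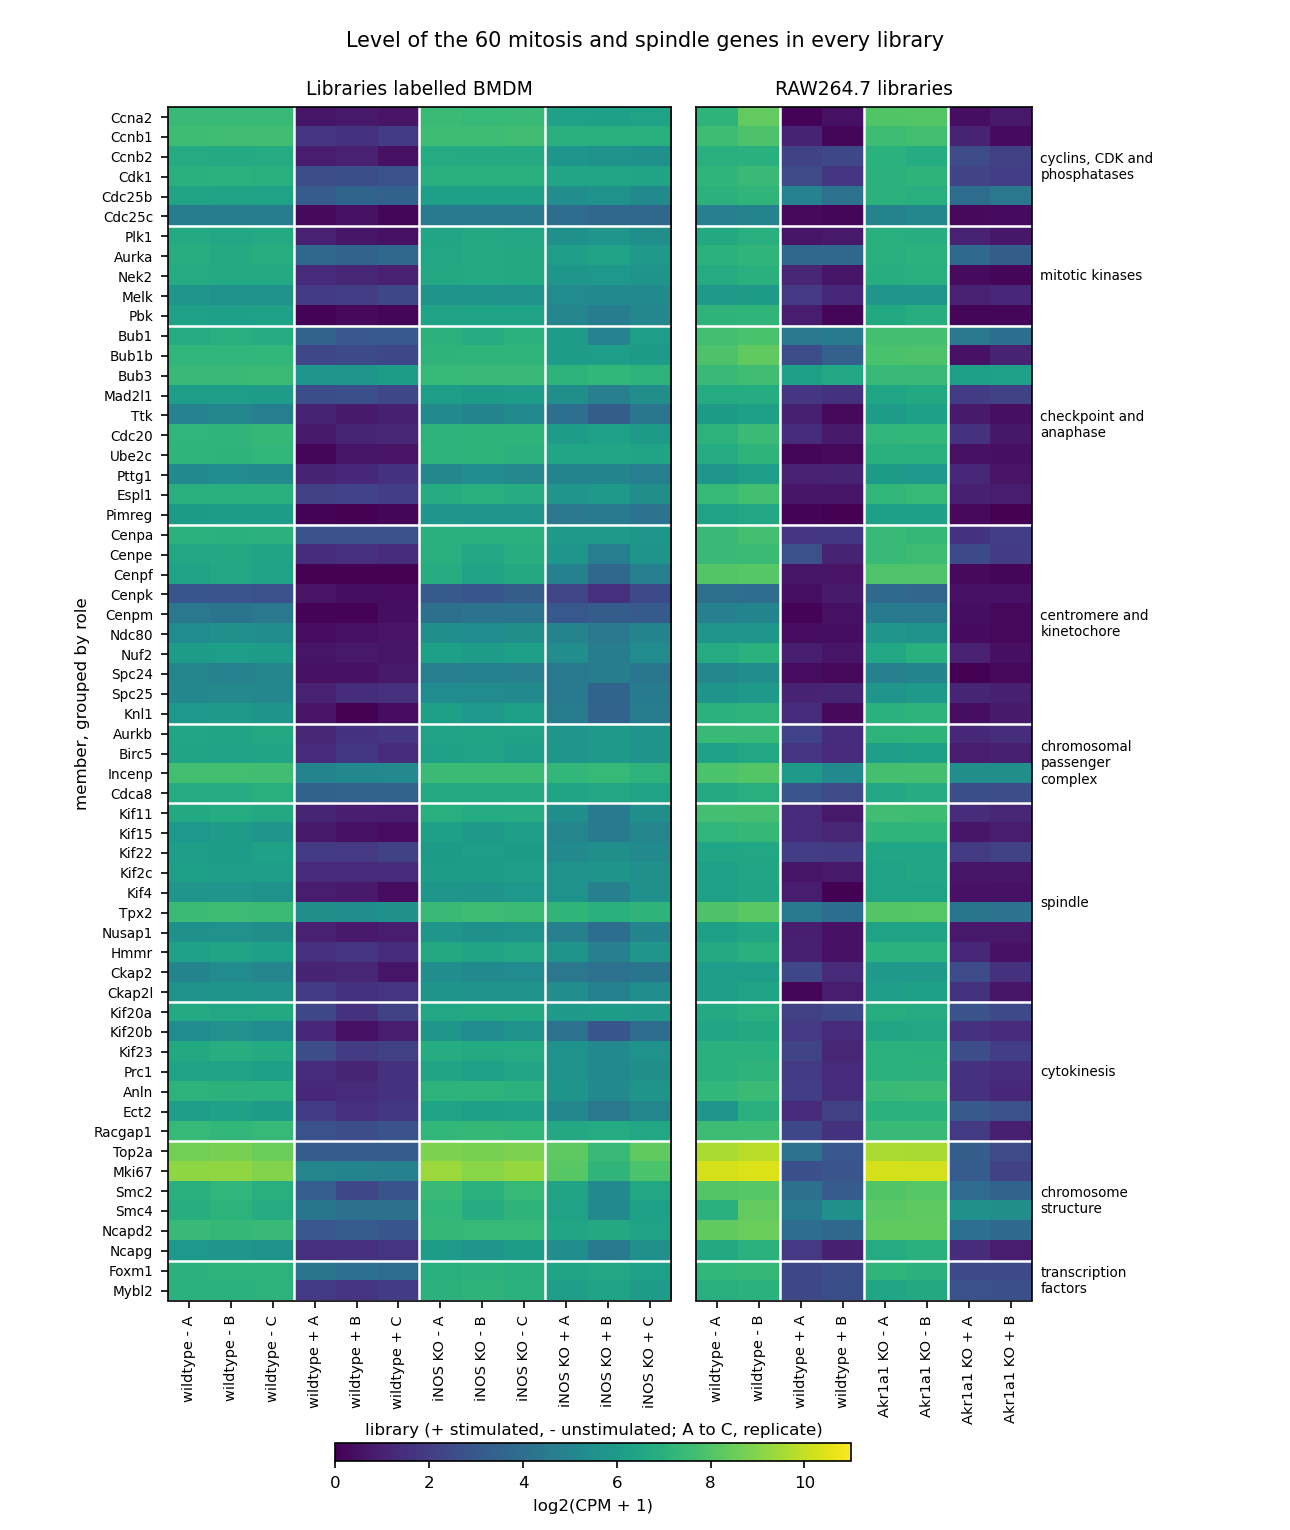
Heat map of log2(CPM + 1) for the 60 members (rows, grouped by role) in the 12 BMDM-labelled and 8 RAW264.7 libraries (columns, with + for stimulated and - for unstimulated). The stimulated wildtype columns are dark in nearly every row, the 3 stimulated iNOS KO columns stay close to their unstimulated counterparts, and both genotypes of stimulated RAW264.7 cells are dark.

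Among the cyclins, Cdk1 and its activating phosphatases, all 6 members were higher in stimulated iNOS KO, with a median log2 fold change of 5.62. Ccna2, the cyclin that acts in S phase and G2, lay at 0.554, 0.675 and 0.485 CPM in stimulated wildtype libraries and at 78.3, 72.1 and 82.5 CPM in stimulated iNOS KO, in the order A, B and C used throughout. Its log2 fold change was 7.07 ± 0.121 (SE), with an adjusted p of 1.9e-16. Ccna2 was thus the highest of its role, and the KO libraries lay far above any wildtype one. Ccnb1, the cyclin that carries cells into mitosis, went from 2.36, 1.96 and 2.91 CPM in wildtype to 118, 118 and 118 CPM in the KO (log2 fold change 5.61 ± 0.1, adjusted p 2.8e-16). Cdk1, the kinase that both cyclins bind, lay at 5.06, 5.27 and 5.75 CPM in wildtype and 90.1, 91.1 and 85.8 CPM in the KO (4.05 ± 0.0806, adjusted p 8.16e-16). The spread among replicates of these 3 genes was small beside the gap between genotypes. The lowest of the role was Cdc25b, which starts Cdk1 activation at the centrosome, at 7.96, 10.5 and 9.64 CPM in wildtype and 40.8, 47.4 and 38.0 CPM in the KO (2.16 ± 0.106, adjusted p 3.99e-11). Ccnb2, another mitotic cyclin, and Cdc25c, the phosphatase of mitotic entry, fell between these bounds.

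The 5 mitotic kinases were all higher, with a median of 5.37. Plk1, the Polo-like kinase needed for centrosome maturation and cytokinesis, lay at 1.04, 0.540 and 0.416 CPM in stimulated wildtype and 44.4, 51.8 and 43.5 CPM in stimulated iNOS KO (log2 fold change 6.12 ± 0.174 SE, adjusted p 5.24e-14). Pbk, a kinase made in proliferating cells, was the highest of the role, at 0.0693, 0.203 and 0.139 CPM against 30.7, 23.5 and 33.4 CPM (7.66 ± 0.232, adjusted p 1.04e-13). Pbk transcripts were close to the detection limit in wildtype and plainly present in every KO library. Aurka, the Aurora kinase of the spindle poles, was the lowest of the role, with more of it left in wildtype cells, at 11.7, 10.4 and 11.9 CPM against 69.8, 80.6 and 59.3 CPM (2.62 ± 0.108, adjusted p 4.63e-12). Nek2, which separates centrosomes, and Melk, a kinase abundant in dividing cells, lay between them.

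All 10 members of the checkpoint and anaphase group were higher, with a median of 3.95. Pimreg, a protein of the metaphase-to-anaphase transition, had 3 counts in all over the stimulated wildtype libraries and 897 over the stimulated iNOS KO libraries, at 0.0693, 0 and 0.139 CPM against 19.6, 21.9 and 17.2 CPM. The ratio of the totals was 283, with an exact 95% counting interval of 96.4 to 1374. Bub3, a checkpoint protein that also has work outside mitosis, was the lowest of the role and of all 60 members, at 53.7, 56.2 and 65.1 CPM against 136, 156 and 138 CPM (log2 fold change 1.30 ± 0.0789 SE, adjusted p 5.51e-10). Bub3 was the member that stimulated wildtype cells kept most of, yet its KO libraries still lay above all wildtype ones. The rest of this group were Bub1, Bub1b, Mad2l1 and Ttk of the checkpoint, Cdc20 and Ube2c, which activate the APC/C and supply it with ubiquitin, and Pttg1 and Espl1, securin and separase.

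At the centromere and kinetochore all 10 members were higher, with a median of 5.42. Cenpf, a large protein of the outer kinetochore, had 0 counts in all 3 stimulated wildtype libraries and 1036 counts over the stimulated iNOS KO libraries, at 27.4, 12.3 and 26.2 CPM, which makes it at least 327-fold higher when set against a floor of 3 counts over the group (adjusted p 5.2e-09). The lowest of the role was Cenpk, of the inner kinetochore network, at 0.485, 0.338 and 0.277 CPM against 3.86, 1.80 and 4.48 CPM (log2 fold change 3.20 ± 0.371 SE, adjusted p 1.6e-06). Replicate B was the lowest KO library for both genes, and it still lay above every wildtype library. Cenpa, the centromeric histone, Cenpe, a kinetochore motor, Cenpm, the NDC80 complex members Ndc80, Nuf2, Spc24 and Spc25, and Knl1, the scaffold that recruits the checkpoint, lay between these bounds.

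The 4 members of the chromosomal passenger complex, which corrects faulty attachments and later marks the midzone, had a median of 3.99. Birc5 (survivin) lay at 1.45, 2.43 and 1.60 CPM in stimulated wildtype and 53.4, 61.0 and 50.6 CPM in stimulated iNOS KO (log2 fold change 4.90 ± 0.138 SE, adjusted p 4.6e-14). Incenp, the scaffold of the complex, was the lowest, at 30.1, 34.4 and 35.2 CPM against 156, 167 and 136 CPM (2.20 ± 0.0819, adjusted p 1.21e-12). Aurkb, the kinase of the complex, and Cdca8 (borealin) were between them, so the scaffold was the subunit of which wildtype cells kept most.

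Among the 10 spindle members, with a median of 4.67, Kif4, a chromosome-bound kinesin, stood highest at 0.762, 0.675 and 0.277 CPM in stimulated wildtype and 48.1, 27.0 and 44.9 CPM in stimulated iNOS KO (log2 fold change 6.11 ± 0.271 SE, adjusted p 1.09e-11). Tpx2, which activates Aurora A and nucleates microtubules, stood lowest, at 42.3, 40.7 and 44.9 CPM against 145, 126 and 142 CPM (1.69 ± 0.0698, adjusted p 4.6e-12). The kinesins Kif11 and Kif15, which push spindle poles apart, Kif22, which pushes chromosome arms, the depolymerising kinesin Kif2c and the microtubule-binding proteins Nusap1, Hmmr, Ckap2 and Ckap2l were all higher by amounts between these.

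The 7 cytokinesis members lay close together, with a median of 4.16. Anln (anillin), which scaffolds the contractile ring, was at 1.39, 1.55 and 2.08 CPM in stimulated wildtype and 50.6, 37.0 and 50.3 CPM in stimulated iNOS KO (log2 fold change 4.78 ± 0.154 SE, adjusted p 2.33e-13). Ect2, an exchange factor of the cleavage furrow, was at 2.91, 1.89 and 2.43 CPM against 34.4, 20.0 and 32.1 CPM (3.58 ± 0.2, adjusted p 1.94e-10). This was the narrowest range of any role with more than 2 members, and it held the midzone kinesins Kif20a, Kif20b and Kif23, the bundler Prc1 and the midzone protein Racgap1.

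The 6 chromosome structure members had a median of 3.56. Top2a, the topoisomerase that disentangles sister chromatids, lay at 8.31, 8.04 and 8.25 CPM in stimulated wildtype and 305, 170 and 316 CPM in stimulated iNOS KO (log2 fold change 5.01 ± 0.195 SE, adjusted p 2.16e-12). Mki67, the Ki-67 proliferation marker that coats mitotic chromosomes, lay at 31.3, 29.6 and 27.7 CPM against 282, 148 and 238 CPM (2.92 ± 0.176, adjusted p 4.94e-10). The condensin ATPase Smc4 was the lowest of the role, at 18.3, 15.7 and 15.5 CPM against 79.2, 36.6 and 77.9 CPM (1.97 ± 0.224, adjusted p 1.26e-06). In all 3 genes KO replicate B was well below A and C, and the genotypes still did not overlap. Smc2, Ncapd2 and Ncapg, further condensin subunits, were also higher.

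Both transcription factors that activate this programme were higher. Mybl2 (B-MYB) lay at 2.70, 2.16 and 2.84 CPM in stimulated wildtype and 69.7, 81.1 and 65.5 CPM in stimulated iNOS KO (log2 fold change 4.81 ± 0.118 SE, adjusted p 9.99e-15). Foxm1 lay at 17.7, 15.3 and 13.7 CPM against 86.1, 95.1 and 78.2 CPM (2.48 ± 0.0974, adjusted p 2.49e-12). The promoter letters were also set beside this contrast, as a description. The median log2 fold change was 4.10 over the 38 members with a CHR match and 4.81 over the 11 matched members without one, and the Bub3 window printed above, from the member that changed least, held both motifs while the Mybl2 window held neither.

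The next comparison asks what stimulation did within each genotype. In wildtype all 60 members fell, against a background of 15.7% of genes called lower, and the median log2 fold change was -5.26. The groups did not overlap for any member, as for 67.8% of genes. The stimulated level was 2.6% of the unstimulated mean for the median member. Bub3 fell least, by 1.57 on the log2 scale, from 172, 168 and 179 CPM to the 53.7 to 65.1 CPM given above, which left 33.8%. Cenpf fell from 82.7, 92.7 and 80.0 CPM to 0, at least 1239-fold lower, and Pimreg fell from 62.9, 65.8 and 65.0 CPM, a ratio of totals of 939 with a 95% counting interval of 321 to 4554. Under 1% of the level was left for 14 members and more than 10% for 7. By role, the median share left in wildtype was lowest for the cyclins, Cdk1 and phosphatases (1.13%), the kinases (1.23%) and the kinetochore (1.37%), and highest for the transcription factors (6.71%) and the chromosomal passenger complex (5.53%).

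In iNOS KO cells the same stimulation lowered every member at an adjusted p under 0.05, but by less. The median log2 fold change was -0.99, and 30 of the 60 members also passed the limit of 1 on the log2 scale, against a background of 8.78% of genes called lower. The median member kept 50.1% of its unstimulated level, from 22.2% for Cenpf to 85.1% for Incenp. Members called lower made up 8 of 10 in the kinetochore, 6 of 10 in the checkpoint and anaphase group, 5 of 10 in the spindle group, 4 of 7 in cytokinesis, 3 of 6 in chromosome structure, 2 of 6 among cyclins, Cdk1 and phosphatases, and 2 of 5 among kinases. The 4 members of the chromosomal passenger complex and both transcription factors had adjusted p-values under 0.05 by edgeR but stayed within the fold limit.

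**Figure D2:**
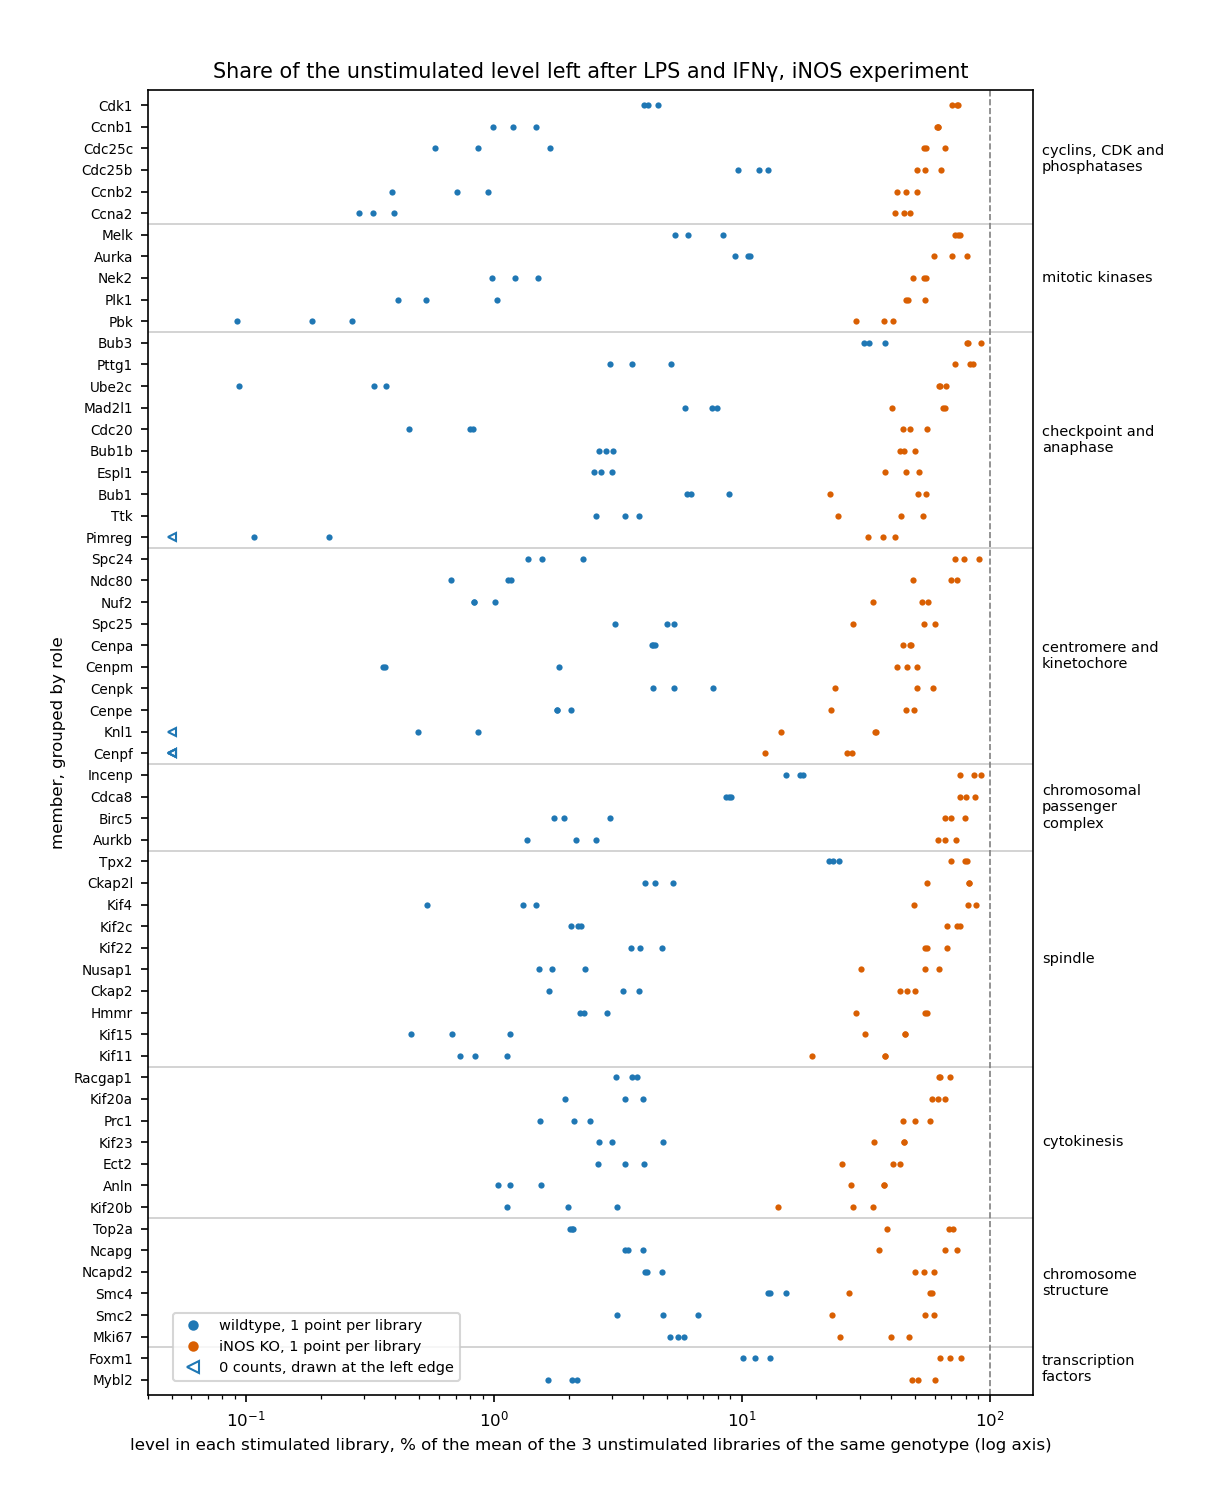
Level of each member in each stimulated library as a percentage of the mean of the 3 unstimulated libraries of the same genotype (log axis), in wildtype (blue) and iNOS KO (orange), BMDM-labelled libraries, with the members grouped by role. The wildtype points lie to the left of the iNOS KO points for every member, with medians of 2.6% and 50.1%, and open triangles at the edge mark libraries with 0 counts.

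Several genes show the unstimulated levels from which the genotypes diverged. Cdk1 lay at 124, 130 and 122 CPM in unstimulated wildtype and 121, 121 and 123 CPM in unstimulated iNOS KO, and the KO kept 73.1% of it after stimulation, a log2 fold change of -0.45. Ccnb1 started at 194, 199 and 199 CPM in wildtype and 194, 186 and 197 CPM in the KO, where it changed by -0.70. Plk1 started at 105, 93.2 and 105 CPM in wildtype and 89.8, 99.9 and 94.2 CPM in the KO, where it changed by -1.02. Of these 3, Plk1 alone passed the fold limit in the KO. Cenpf had the greatest fall in the KO, from 111, 82.7 and 103 CPM to 27.4, 12.3 and 26.2 CPM (log2 fold change -2.16), while Bub3 went from 165, 173 and 169 CPM to 136, 156 and 138 CPM (-0.24, adjusted p 0.0151).

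The difference between the 2 responses was tested directly as an interaction. The response to stimulation was higher in iNOS KO than in wildtype for all 60 members, against a background of 20.0% of genes called in that direction (here by adjusted p alone), with a median difference of 4.29 on the log2 scale and adjusted p-values from 7.35e-15 to 0.000119. The smallest difference was that of Bub3, 1.33. This comparison shares its stimulated libraries with the one between genotypes above.

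**Figure D3:**
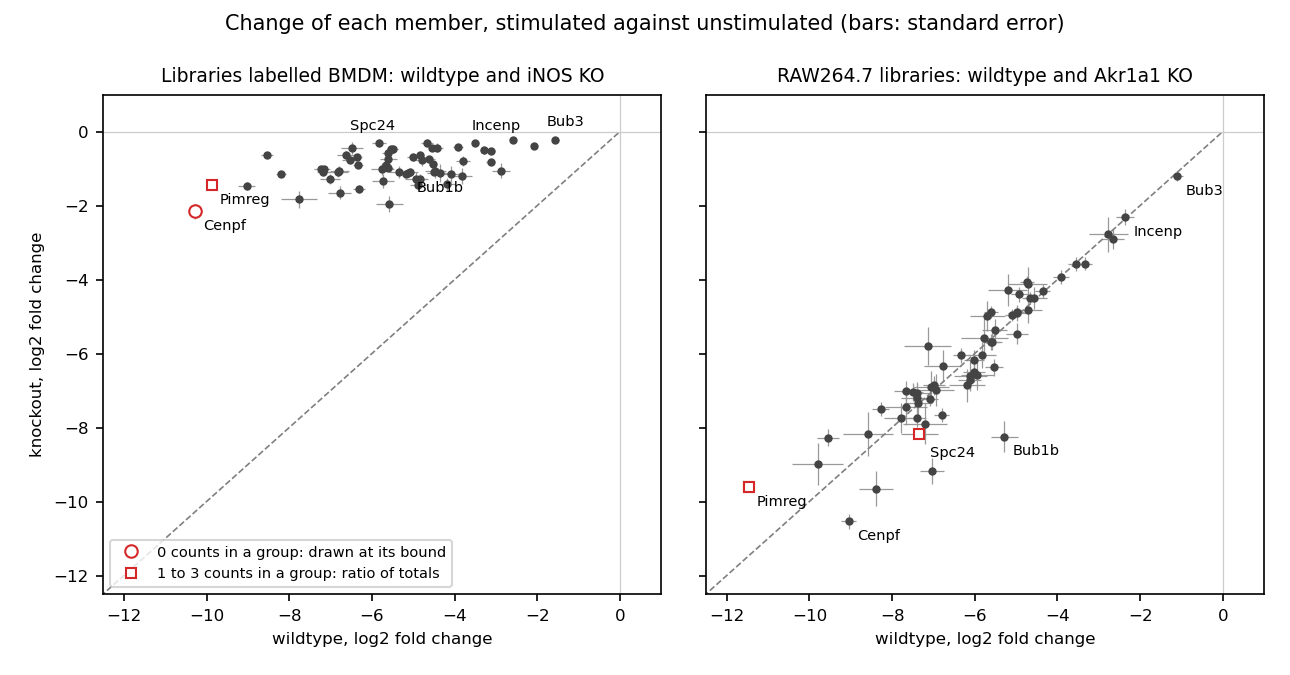
Log2 fold change of each member on stimulation in wildtype (x axis) and in the knockout (y axis), for the BMDM-labelled libraries (iNOS KO, left) and RAW264.7 cells (Akr1a1 KO, right), with bars for the standard error and the dashed line where both responses are equal. The iNOS KO points lie far above the line, between -2.16 and -0.23 on the y axis, while most Akr1a1 KO points lie along it and Bub1b lies below.

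Without stimulation no member passed the test between the iNOS genotypes. In unstimulated iNOS KO against wildtype, 0 of the 60 members were called by edgeR, against a background of 1.66% of genes called in either direction, and 0 were called by DESeq2. The count at an unadjusted p under 0.05 was 1, against 17.1% of genes. The median log2 fold change was -0.02, ranging from -0.28 for Pimreg to 0.30 for Knl1, the smallest adjusted p was 0.0891, and the groups did not overlap for 16 members, against 29.1% of genes. The summed level was 6272 to 6459 CPM in wildtype and 6253 to 6647 CPM in the KO. Per kilobase of the gene length listed with the counts, the members spanned a wide range, as means of the unstimulated wildtype libraries. The lowest were Cenpk at 1.21 CPM per kb, Cdc25c at 4.89 and Kif15 at 5.43. The highest were Ube2c at 56.7, Ccnb2 at 70.01 and Cdc20 at 81.4.

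Replicate B stood apart among the stimulated iNOS KO libraries. In it, 23 of the 60 members lay more than 0.5 below the mean of replicates A and C on the log2 scale, and 32 lay below it at all. Smc2, a condensin ATPase, was lowest at -1.29 and Aurka highest at 0.32, with Top2a at -0.86, Mki67 at -0.81 and Cdk1 at 0.05. This deviation went with the GC content of the transcript, which ran from 34.8% for Ncapg to 56.3% for Mybl2 with a median of 46.2%. Across the 60 members, which share the libraries, Spearman's correlation between the deviation and GC content was 0.876, and it was 0.759 across 8445 genes. Libraries of the other groups showed such correlations too, from -0.784 in unstimulated iNOS KO replicate A to 0.780 in unstimulated wildtype replicate C. Each deviation was taken against the other replicates of its group, so correlations within a group depend on one another. That of stimulated KO replicate C, -0.846, was taken against a mean that held replicate B. The members deviated less in the other 11 libraries, with an SD of 0.0634 to 0.333 against 0.529 in stimulated KO replicate B. In 4 equal bins of those genes by GC content, from low to high, the median deviation was -0.51, -0.05, 0.14 and 0.22. Across the members, Spearman's correlation of the iNOS KO response with GC content was 0.690 in replicate B alone, 0.388 with all 3 replicates and 0.0794 with A and C. Without replicate B, 23 members were called lower in the iNOS KO response rather than 30, with a median of -0.86, and all 60 were still called higher than stimulated wildtype. The part of GC content in these values was not tested.

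**Figure D4:**
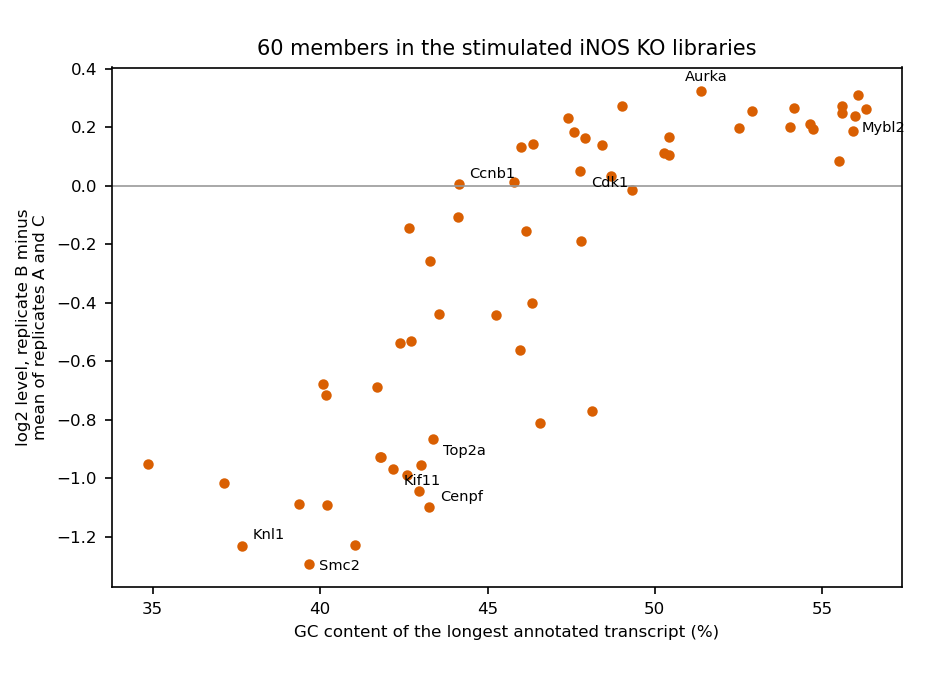
Each point is 1 of the 60 members in the stimulated iNOS KO libraries, with the GC content of its longest annotated transcript (%) on the x axis and the log2 level in replicate B minus the mean of replicates A and C on the y axis. Members of low GC content lie as far down as -1.29 (Smc2) and those of high GC content lie slightly above 0.

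A further list of 122 genes that work in mitosis was examined for the same contrast, of which 121 were tested. In stimulated iNOS KO against wildtype, 83 were called higher, against the 10.7% of all genes given above, and the median over the list was 2.04. They comprised 26 of 30 kinetochore genes, 17 of 27 centrosome and microtubule genes, 11 of 13 regulators of mitotic entry and 6 of 6 cytokinesis genes. The others were 4 of 5 kinesins, 3 of 4 condensin genes, 5 of 11 cohesin and separation genes, 3 of 16 APC/C genes and 8 of 9 genes of other mitotic functions. The 16 APC/C genes include Fzr1 and Ube2s, which are not subunits. The 3 called were Anapc5 (1.10), Anapc15 (1.51) and Ube2s (1.21). Kif14, a cytokinesis kinesin, lay at 0.208, 0.203 and 0.208 CPM in stimulated wildtype and 23.9, 19.0 and 25.2 CPM in stimulated iNOS KO (log2 fold change 6.74 ± 0.198 SE, adjusted p 7.6e-14). Ska1, which couples kinetochores to microtubule ends, lay at 0, 0.0675 and 0.0693 CPM against 12.2, 13.4 and 11.9 CPM. Both genes were near 0 in every wildtype library and well above it in every KO library. At the other end, Cenpj, a centriole protein, lay at 20.6, 19.99 and 18.8 CPM in wildtype against 10.7, 7.86 and 12.5 CPM in the KO (-0.93 ± 0.133), and the APC/C subunit Anapc16 at 56.5, 59.5 and 61.0 CPM against 34.6, 39.8 and 34.1 CPM (-0.71 ± 0.0822). Neither passed the fold limit, though the groups did not overlap. On stimulation, 87 of the list fell and 2 rose in wildtype, where 15.7% of all genes were called lower and 19.7% higher, and 24 fell and 2 rose in iNOS KO, where 8.78% were called lower and 14.0% higher.

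Smaller lists covered the regulators around the mitotic genes, with median log2 fold changes of 1.44 for the G1 genes and 0.59 for MuvB and DREAM. Of the G1 cyclins and their kinases, 6 of 8 were higher in stimulated iNOS KO, against 10.7% of all genes, led by the E cyclins that open S phase. Ccne2 lay at 0.9003, 1.08 and 1.11 CPM in stimulated wildtype and 19.7, 10.96 and 17.96 CPM in stimulated iNOS KO (log2 fold change 3.97 ± 0.23 SE, adjusted p 2.97e-10), and Ccne1 at 7.13, 9.05 and 8.11 CPM against 53.7, 61.6 and 52.2 CPM (2.78 ± 0.0987, adjusted p 6.93e-13). Cdk6 (-0.20) and Ccnd3 (0.37) were the 2 not called. Of 9 subunits of MuvB and DREAM, 2 were called higher against the same 10.7%, Tfdp1 (2.02 ± 0.0612) and Lin9 (1.14 ± 0.113), while Rbl2 (p130) differed by -0.40 and Lin52 by -0.15. Among CDK inhibitors, Cdkn1a (p21), which halts Cdk2 and Cdk1, was at 149 to 168 CPM in unstimulated wildtype and 174 to 206 CPM in unstimulated iNOS KO. It rose in both genotypes on stimulation, to 689 to 793 CPM in wildtype (log2 fold change 2.21) and 489 to 593 CPM in iNOS KO (1.48), and the responses differed by -0.73 ± 0.119 (interaction, adjusted p 0.000115). Between the stimulated genotypes Cdkn1a differed by -0.48, Cdkn2d by -0.35 and Cdkn1b by -0.23, none past the fold limit, and Cdkn2c (p18) was higher in the KO by 1.55 ± 0.106. Cdkn1c and Cdkn2b were at 0 in all 20 libraries, and Cdkn2a was at 0 in all but 1.

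The RAW264.7 experiment compared the response of wildtype cells with that of cells labelled Akr1a1 KO, in which Akr1a1 transcript itself did not pass the test against wildtype (log2 fold change -2.01 and adjusted p 0.56 unstimulated, -1.10 and 0.643 stimulated). In wildtype RAW264.7 cells all 60 members fell on stimulation, against a background of 19.2% of genes called lower by adjusted p alone, and their median log2 fold change was -6.02. In Akr1a1 KO cells all 60 fell too, against 19.4%, with a median of -6.36. The summed level went from 9355 and 10974 CPM to 388 and 348 CPM in wildtype and from 9586 and 9756 CPM to 364 and 327 CPM in the KO, which left 3.62% and 3.57%. Mki67 went from 1238 and 1372 CPM to 5.36 and 6.36 CPM in wildtype (log2 fold change -7.79 ± 0.4 SE) and from 1248 and 1230 CPM to 8.17 and 3.39 CPM in the KO (-7.75 ± 0.399). Cdk1 went from 147 and 168 CPM to 4.69 and 2.31 CPM in wildtype and from 133 and 142 CPM to 3.75 and 2.95 CPM in the KO. The stimulated libraries of both genotypes lay far below the unstimulated ones and close to each other. Bub3 again fell least, by 1.10 in wildtype and by 1.21 in the KO, with 92.6 CPM the highest stimulated library against 167 CPM as the lowest unstimulated wildtype one. The greatest falls had few counts behind them. Pimreg had 1 count over the stimulated wildtype libraries, a ratio of 2841 with a 95% counting interval of 509.7 to 112200, and 3 counts in the stimulated KO, a ratio of 778 with an interval of 265.8 to 3773.

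Stimulated Akr1a1 KO cells differed from stimulated wildtype in 1 of the 60 members, against a background of 0.286% of genes called in either direction. The median log2 fold change was -0.03, 8 members had an unadjusted p under 0.05, against 11.1% of genes, and the groups did not overlap for 14, against 38.4% of genes. The member called was Bub1b, the checkpoint kinase-like protein BubR1, with 68 and 164 counts in stimulated wildtype and 7 and 17 in stimulated Akr1a1 KO. That is 5.06 and 9.23 CPM against 0.469 and 1.07 CPM, a log2 fold change of -3.21 ± 0.411 SE with an adjusted p of 0.0248. Without stimulation Bub1b lay at 243 and 321 CPM in wildtype and 229 and 245 CPM in the KO. The call was lost when only the groups compared were fitted (adjusted p 0.264), and leaving out either stimulated KO library, either unstimulated KO library or unstimulated wildtype replicate B gave adjusted p-values that also missed the threshold. Nek2 stood next, at 1.26 and 0.563 CPM against 0.268 and 0.126 CPM (-2.14 ± 0.522, adjusted p 0.194). At the upper end Ect2 lay at 1.56 and 3.21 CPM against 7.50 and 5.59 CPM (1.42 ± 0.468, adjusted p 0.326). It lies on a part of chromosome 3 where wildtype replicate A was lower than B, described below. Pimreg had 1 and 0 counts against 3 and 0, too few for a fold.

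The unstimulated RAW264.7 genotypes and the interaction gave no calls among the members. In unstimulated Akr1a1 KO against wildtype, 0 of 60 were called by edgeR, against a background of 0.583%, with 1 at an unadjusted p under 0.05 (Mybl2, log2 fold change -0.45, p 0.00915), against 8.04% of genes. The groups did not overlap for 25 members, against 41.7% of genes, and the median was -0.07. The highest value was 0.50 for Ect2, at 54.6 and 126 CPM in wildtype and 128 and 129 CPM in the KO. Ect2 lies on the part of chromosome 3 where wildtype replicate A was lower than B, described below. In the interaction of Akr1a1 KO with stimulation, 0 of 60 were called by edgeR, against a background of 0.0204%, with 8 at an unadjusted p under 0.05 (5.51% of genes), 1 called by DESeq2 and a median of 0.05. When the replicate letter was fitted as a block within each genotype, an alternative added after seeing the data because the study describes clonal replicates, Bub1b was called in the interaction (log2 difference -2.93, adjusted p 0.0021), and both responses to stimulation kept 60 calls.

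Members on chromosome 3 set wildtype replicate A of the RAW264.7 cells apart from replicate B. In unstimulated wildtype cells Ccna2 lay at 140 CPM in A and 323 CPM in B, Smc4 at 124 and 328 CPM, and Ect2 lower in A by a log2 difference of -1.19. The differences for Ccna2 and Smc4 were -1.20 and -1.40, while Cenpe, at the far end of the same chromosome, differed by -0.11 and the other 56 members by a median of -0.18. The step was shared by the neighbouring genes. On the first 70 Mb of chromosome 3, as the table lists positions, 108 genes had a median difference of -1.09 between unstimulated A and B and -0.88 between stimulated A and B. The 208 genes from 70 to 110 Mb had medians of -0.61 and -0.47, and the 108 genes beyond had -0.10 and 0.06. In Akr1a1 KO cells the corresponding medians for the first segment were -0.04 and 0.01. These bounds were chosen after the values were seen, and the cause was not tested. Leaving out both wildtype replicate A libraries, an alternative added after seeing the data, moved the median of stimulated Akr1a1 KO against wildtype to 0.19 and that of the interaction to 0.38.

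**Figure D5:**
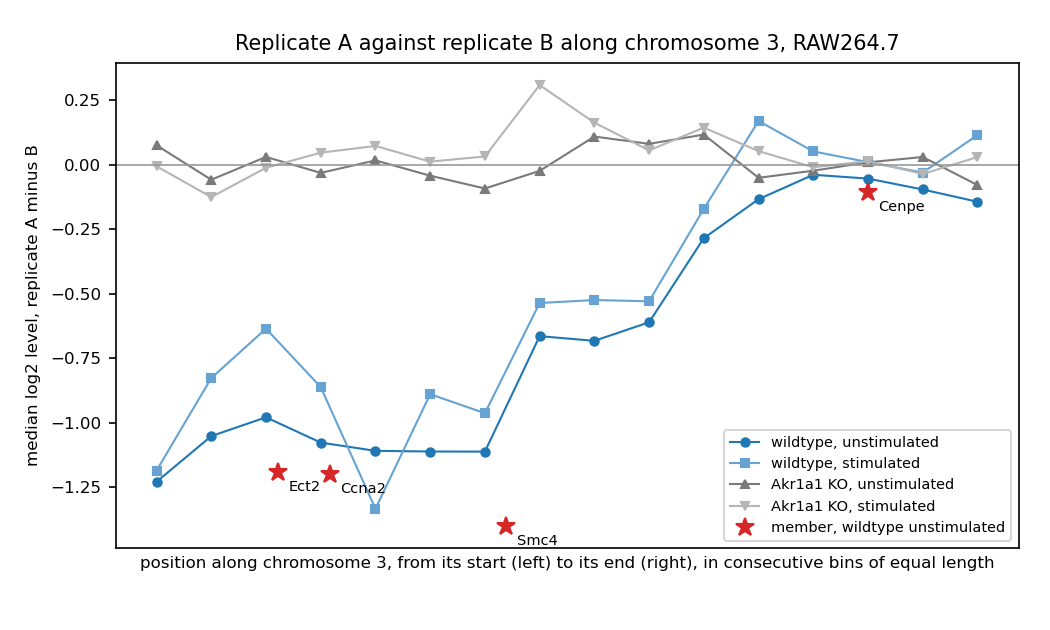
Median log2 difference between replicates A and B of RAW264.7 cells in consecutive equal bins along chromosome 3 (x axis, start to end), for the 4 genotype and stimulation groups, with stars for the 4 members on this chromosome in unstimulated wildtype. Both wildtype lines lie near -1 over the first part of the chromosome and near 0 at its end, and the Akr1a1 KO lines lie closer to 0 over that first part.

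Set side by side, the wildtype responses of the experiments are described here over 60 genes measured in separate tables. Pearson's r between the log2 fold changes was 0.795 and Spearman's correlation 0.761, and 43 of the 60 members had the more negative value in RAW264.7 cells. These used the fitted folds, also for Cenpf (0 counts in stimulated BMDM-labelled wildtype) and Pimreg (3 counts there and 1 in RAW264.7 cells). The weight of these 2 extreme members in Pearson's r was not tested. Bub3, Incenp and Tpx2 were among the members that kept most in the BMDM-labelled libraries, and the median member kept 1.58% of its unstimulated level in wildtype RAW264.7 cells, 1.2% in Akr1a1 KO cells, 2.6% in wildtype BMDM-labelled libraries and 50.1% in iNOS KO ones.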

How the data were processed

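The authors sequenced poly(A) libraries and deposited 1 table of raw counts per gene for each experiment, and the submitters' processing notes name CASAVA, STAR and mm10 without versions. The counting tool and strand setting are not given in the sources used here. Gene positions listed with the counts did not match the RefSeq promoter windows, as for Bub3 (start 131161951 against a window from 131560120). The positions along chromosome 3 are those listed with the counts. The deposited counts were analysed as whole numbers with edgeR 4.0.16 in R 4.3.3. Genes with at least 10 counts in all were kept, TMM factors were applied, a group-means model over the 4 groups of an experiment was fitted, and quasi-likelihood F tests were adjusted by Benjamini-Hochberg over all genes tested. Calls needed an adjusted p under 0.05 and, in the iNOS experiment (its interaction excepted), an absolute log2 fold change above 1. Standard errors were derived from the fold change and F. Groups with 0 counts were set against a floor of 3 counts over the group. Intervals and floors cover counting error only. DESeq2 1.42.0 was an alternative. The fits were checked on simulated data. Replicates of a group differed by more than sampling noise. GC content came from the longest GENCODE transcript of each gene, and the promoter windows came from RefSeq. Members and lists were chosen with earlier results of these data known. Values per library are given for the highest and the lowest member of each role in stimulated iNOS KO against wildtype, for Ccnb1, Cdk1, Plk1, Top2a and Mki67, for the 2 highest and 2 lowest members of stimulated Akr1a1 KO against wildtype, and for the 2 highest and 2 lowest genes of the other mitosis list. Members shown for other contrasts were added after their values were seen.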

Additional observations from a re-analysis of the deposited data

Results flagged for a closer look

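All 60 members met the rule for effects that differ between groups, since the test of the difference itself, the interaction of iNOS genotype with stimulation, was passed by each of them. In every case the fall on LPS and IFNγ was smaller in iNOS KO than in wildtype. The median response was -5.26 on the log2 scale in wildtype and -0.99 in iNOS KO, and the smallest difference was that of Bub3, 1.33. Groups of 2 or 3 libraries are too small for a test of single outlying libraries.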

How the results depend on the processing

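Of 382 alternative values of the counts, medians and motif shares, 353 stayed the same by the criteria used. Of 1616 values of single genes 1577 did, 28 newly passed the threshold and 11 no longer passed it. No gene that passed the threshold in either fit changed sign, and sign changes of genes that passed in neither were not counted. The cause of the changes below was not tested. In the iNOS experiment, with no fold limit 60 members were called lower in the iNOS KO response. Leaving out 1 library at a time gave medians of 4.26 to 4.40 for stimulated iNOS KO against wildtype and -1.01 to -0.86 for the iNOS KO response. For stimulated Akr1a1 KO against wildtype, DESeq2 called 3 members, a minimum of 1 count called 7, fitting only the groups compared called 0, and leaving out 1 library called 0 to 2, with medians of -0.28 to 0.16. That median turned positive without stimulated wildtype replicate A (0.16), without stimulated KO replicate B (0.07) and without both wildtype replicate A libraries (0.19). For the Akr1a1 interaction, DESeq2 called 1 member, a minimum of 1 count called 2, and leaving out 1 library called 0 to 1, with medians of -0.25 to 0.21, reversed without stimulated wildtype replicate B (-0.25) and without stimulated KO replicate A (-0.23). Medians of the RAW264.7 responses ran from -6.44 to -5.66 in wildtype and -6.83 to -6.08 in the KO, and without both wildtype replicate A libraries the wildtype median was -6.57 and the interaction 0.38. Replicate letters did not pair the samples across all groups, with correlations of same-letter deviations from -0.53 to 0.509 (BMDM-labelled) and -0.169 to 0.414 (RAW264.7), and fitting the letter as a block left the iNOS calls at 60, 0, 60, 30 and 60 and changed no count of members called. Within RAW264.7 genotypes, where the study describes clones, same-letter libraries had correlations of 0.414 (wildtype) and 0.149 (KO). A block within genotype, added after seeing the data, left 60 calls in each response and gave 1 in the interaction, Bub1b. With as few as 42 to 48 members above 10 counts in a stimulated library that lost them, depth limits the ratios of the lowest members.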

Other observations

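The promoter letters were also counted in the further list of mitosis genes. Among those called higher in stimulated iNOS KO, a CHR match was found in 33 of 68 matched genes (48.5%) and both motifs in 33.8%, and among those not called, a CHR match was found in 8 of 34 (23.5%) and both motifs in 11.8%. The Akr1a1 KO replicates also differed in the median over the genes of chromosomes 1 and 12. How these differences were spread along the chromosomes was not examined. Between replicates A and B, genes on chromosome 1 had a median log2 difference of -0.30 in unstimulated and -0.21 in stimulated cells, and genes on chromosome 12 had -0.39 and -0.33.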
